A study of Danio rerio with 12 samples.

Results

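Ovary RNA of adamts9 mutant zebrafish was compared with that of wild-type zebrafish at 61 days post fertilization (dpf), with 3 libraries in each group. The labels give the wild-type fish as AB strain and the others as mutant lines kept in the same facility, and name neither the mutant allele nor the strain in which it was kept. Whether a library holds 1 ovary or several is not said, and the p-values cover only the differences among these libraries, some of which may be technical. The 6 libraries of 61 dpf are part of a set of 12, in which 3 mutant and 3 wild-type libraries of 47 dpf make up the rest. Ages follow the sample labels, since the description of the whole series names a different pair of ages. All 21393 genes that passed the filter on low counts were compared, of which 617 were placed on the chromosome of adamts9 (chromosome 11), 17111 on other chromosomes, and 3665 could not be placed.

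Adamts9 is a secreted metalloprotease that cleaves proteoglycans of the extracellular matrix, versican among them. The matrix of the ovary is remodelled as follicles form and grow, and its proteases, inhibitors, collagens and glycoproteins are made mostly by the somatic cells around the oocyte. Genes that lie close together on a chromosome are inherited together. Fish selected for a mutant adamts9 allele therefore also tend to share the alleles of neighbouring genes on the chromosome that carries it, and a difference at such a gene between mutant and wild type cannot be told apart from a difference between 2 chromosome backgrounds.

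Total counts per library were 17593307 to 26005147 in mutant and 21679920 to 38720166 in wild type. Oocyte markers were at a summed 3690 to 4640 CPM (counts scaled to a fixed library size by TMM) in mutant and 2720 to 3960 CPM in wild type, and none of the 7 (gdf9, bmp15, figla, zar1, buc, zp3b and ddx4) was at 0. The 3 wild-type libraries were less alike than the 3 mutant ones, with a median SD of log2 CPM per gene of 0.229 in mutant and 0.443 in wild type. Mitochondrial genes took 0.75% to 1.06% of the counts in mutant and 1.06% to 2.21% in wild type. On the first principal component of all 12 libraries, these mutant libraries lay at -26.8 to -14.6 and these wild-type libraries at 42.8 to 105.5. The libraries of 47 dpf lay at -59.05 to -24.55 in mutant and -31.24 to 1.117 in wild type. The older mutant libraries thus lay within the range of the younger libraries, and the older wild-type libraries lay outside it. The part of these differences between libraries in the results below was not tested, other than by leaving out each library in turn.

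In all, 390 genes (1.82% of those tested) were called at an adjusted p under 0.05, by edgeR's quasi-likelihood test with Benjamini-Hochberg adjustment. Of these, 262 (1.22%) were higher and 128 (0.598%) lower in mutant. Upper-quartile scaling, which moved the median of all genes by 0.20 on the log2 scale, called 1008 genes with 88.7% higher, against 67.2% higher here. DESeq2, run without the filter on low counts, called 2420 of 21272 genes, with 45.4% higher. Its counts for the lists below are to be read beside that share. The number of list members it tested can differ from the number given. The 12 libraries share 1 estimate of the spread, and a fit of the 6 libraries of 61 dpf alone called 20 genes, 7 of them on the chromosome of adamts9 and 6 on other chromosomes. The number called also rested on single libraries. Leaving out mutant replicate 1, 2 or 3 gave 36, 27 or 29 calls. Leaving out wild-type replicate 1, 2 or 3 gave 550, 1637 or 58 calls. Before adjustment 25.3% of all genes had a p under 0.05, and the CPM of the groups did not overlap in 27.9% of all genes (15.6% higher and 12.3% lower in mutant). Genes named below for the largest rises, largest falls or smallest p were chosen among called genes whose groups did not overlap. For them the lack of overlap follows from that choice. Log2 fold changes were above 0 in 50.4% of genes, with a median of 0.0055. Of the 390 genes, 19 were called in all 6 of these fits, 12 higher and 7 lower.

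Genes of the chromosome of adamts9 were called more often than those of any other chromosome. Of its 617 tested genes, 28 (4.54%) were called, 11 higher and 17 lower in mutant, against 284 of 17111 genes (1.66%) on the other 24 chromosomes, where single chromosomes ranged from 0.618% to 2.76%. Of the 28 genes, 8 were among the 19 called in all 6 fits that leave out a library, against 6 of the 284 called genes of other chromosomes. By gene order, 11 of the 40 tested genes nearest to adamts9, 20 on each side, were called (27.5%), as were 17 of the nearest 100 (17%) and 20 of the nearest 200 (10%). Farther away, 8 of 416 were called (1.92%), close to the share of all genes. The 28 calls became 12, 10 and 10 when mutant replicate 1, 2 or 3 was left out and 37, 67 and 13 when wild-type replicate 1, 2 or 3 was left out.

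**Figure D1:**
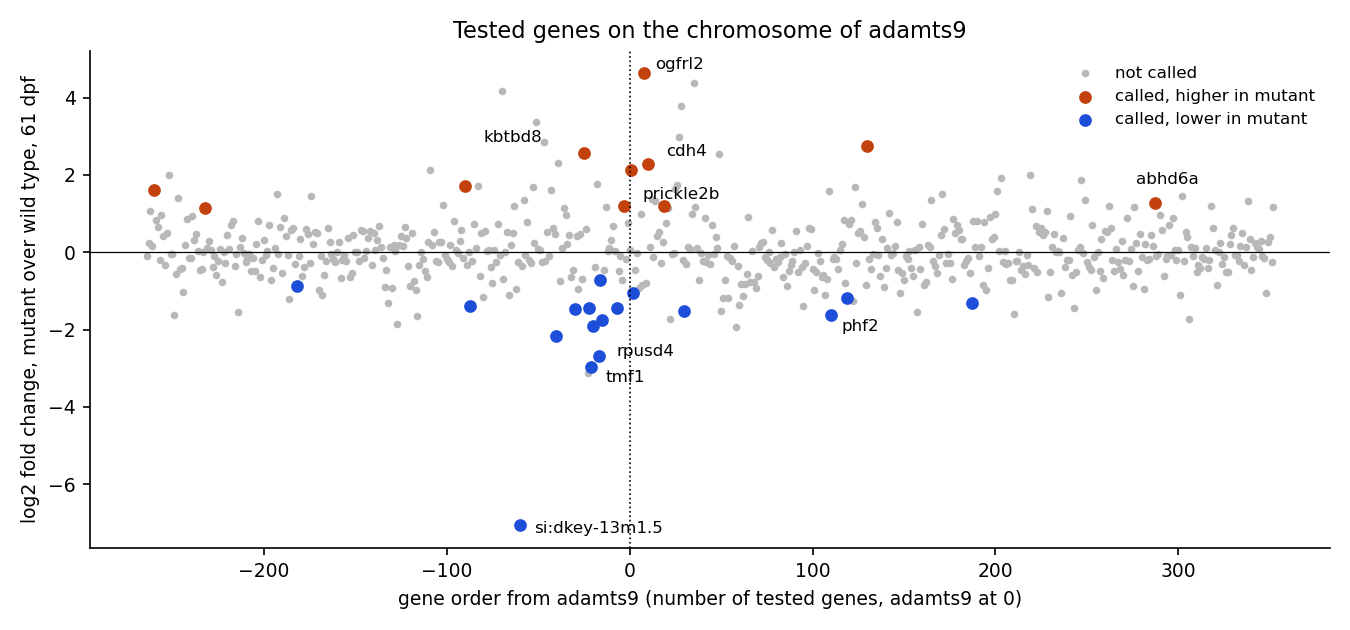
Each point is a tested gene of the chromosome of adamts9, with its order from adamts9 in numbers of tested genes on the x axis and its log2 fold change, mutant over wild type at 61 dpf, on the y axis. The 28 called genes are coloured by direction, and 17 of them lie within 50 tested genes of adamts9.

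adamts9 itself had 12.9, 16.1 and 14.4 CPM in mutant, against 9.99, 15.7 and 15.9 CPM in wild type. The groups overlapped (log2 fold change 0.06, SE 0.22, adjusted p = 0.886), so the level of its transcript does not check the genotype labels. In 11 of its 40 nearest neighbours in gene order a difference was called.

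ogfrl2, an opioid growth factor receptor-like gene 8 places after adamts9, had 49.9, 51 and 47.3 CPM in mutant, against 2.54, 1.09 and 2.28 CPM in wild type. All 3 mutant libraries lay far above all 3 wild-type libraries (log2 fold change 4.63, SE 0.34, adjusted p = 9.39e-05). The next gene after adamts9 is prickle2b, of planar cell polarity, which had 78.6, 73.2 and 95.8 CPM in mutant, against 11.2, 23.7 and 22.2 CPM in wild type. Its groups did not overlap (log2 fold change 2.12, SE 0.29, adjusted p = 0.0085). cdh4, the R-cadherin gene 10 places after adamts9, had 10.3, 11.1 and 9.52 CPM in mutant, against 1.81, 2.46 and 2.11 CPM in wild type, again without overlap (log2 fold change 2.28, SE 0.25, adjusted p = 0.00268). kbtbd8, a substrate adaptor of a ubiquitin ligase 25 places before adamts9, had 42.1, 39.5 and 37.9 CPM in mutant, against 4.74, 6.76 and 8.77 CPM in wild type, and its groups lay apart as well (log2 fold change 2.56, SE 0.39, adjusted p = 0.0162). The call of kbtbd8 was lost without mutant replicate 1, 2 or 3, with an adjusted p of up to 0.0542 over all alternatives, while its log2 fold change stayed at 2.38 to 2.8.

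Of the 17 genes called before adamts9 in gene order, 12 were lower in mutant. rpusd4, a mitochondrial pseudouridine synthase gene 17 places before adamts9, had 6.12, 7.79 and 6.74 CPM in mutant, against 50.7, 43.3 and 39.6 CPM in wild type. The mutant libraries were all far below the wild-type ones (log2 fold change -2.69, SE 0.18, adjusted p = 6.80e-05). tmf1, a Golgi protein gene 21 places before adamts9, had 5.67, 7.64 and 6.18 CPM in mutant, against 58.8, 41 and 52.1 CPM in wild type, with no overlap (log2 fold change -2.96, SE 0.26, adjusted p = 0.000418). uba3, the catalytic subunit of the NEDD8-activating enzyme 20 places before adamts9, had 19.6, 16 and 18.3 CPM in mutant, against 77.8, 68.7 and 56.5 CPM in wild type. Every mutant library was below every wild-type library (log2 fold change -1.91, SE 0.22, adjusted p = 0.00305). phf2, a histone demethylase gene farther away at 110 places after adamts9, had 11.3, 12.7 and 9.69 CPM in mutant, against 35, 32.1 and 37.1 CPM in wild type, and its groups lay apart too (log2 fold change -1.63, SE 0.19, adjusted p = 0.00395). In the fit of the 6 libraries of 61 dpf the calls of prickle2b (adjusted p = 0.057) and phf2 (adjusted p = 0.0503) were lost, and those of ogfrl2, cdh4, kbtbd8, rpusd4, tmf1 and uba3 held.

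The other called genes within 50 places were lower in mutant in 8 of 10 cases. cdk5rap1, a mitochondrial tRNA-modifying enzyme, fell by 2.16 on the log2 scale, and tada3l, a subunit of histone acetyltransferase complexes, by 1.48. eogt, which adds O-linked N-acetylglucosamine to secreted proteins, fell by 1.45 and ppp1r15b, a subunit of the phosphatase of eIF2alpha, by 1.53. zmynd8, a chromatin reader, fell by 1.45. tmem183a rose by 1.19 and phtf1 by 1.2. The call of tmem183a was lost without mutant replicate 3, that of cdk5rap1 without mutant replicate 1 or 2, and those of eogt, tada3l, ppp1r15b, phtf1 and zmynd8 without any 1 mutant library. Those of tada3l, ppp1r15b, phtf1 and zmynd8 were also lost without wild-type replicate 3, and that of zmynd8 without wild-type replicate 1. At 47 dpf the log2 fold change of zmynd8 was 0.30. si:dkey-13m1.5, chosen after its values were seen because of their size, lay 60 places before adamts9 and had 0.286, 0.473 and 0.39 CPM in mutant, against 57.9, 41.4 and 57.3 CPM in wild type. The wild-type libraries were all far above the mutant ones (log2 fold change -7.07, SE 0.49, adjusted p = 6.80e-05).

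**Figure D2:**
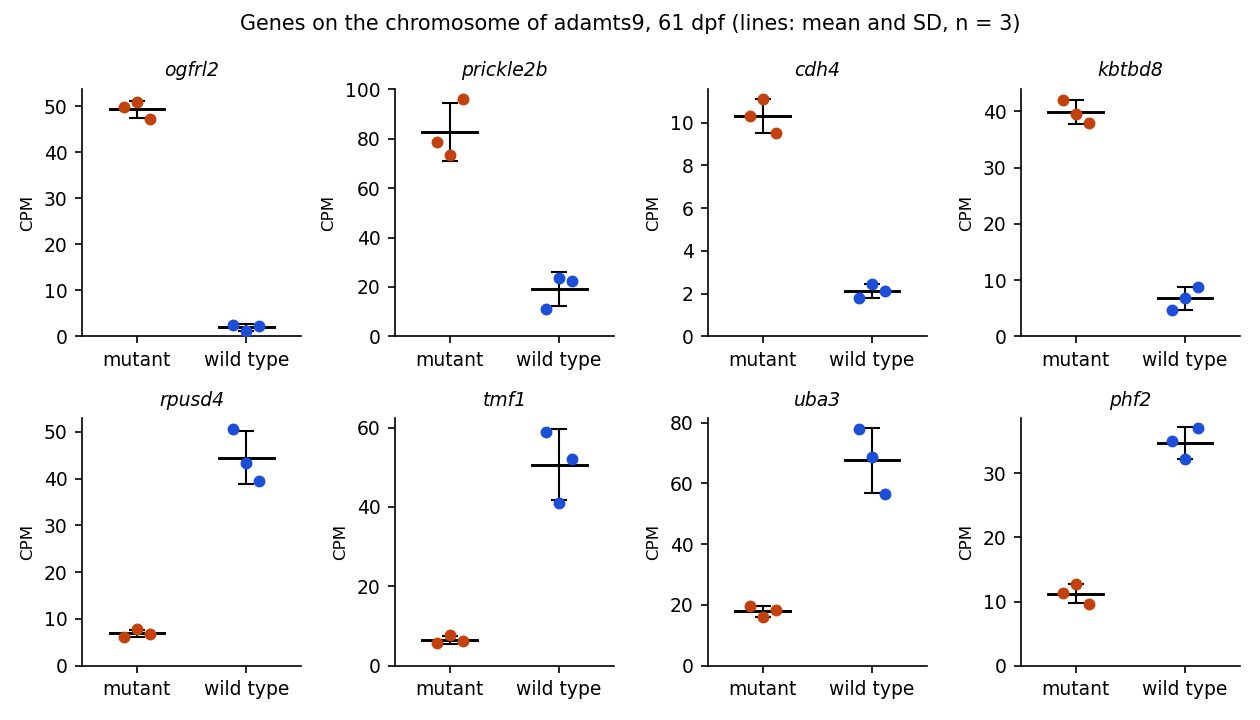
CPM of each library for 8 called genes of the chromosome of adamts9, with the mutant libraries left and the wild-type libraries right, and the mean and SD of 3 libraries as lines. ogfrl2, prickle2b, cdh4 and kbtbd8 are higher and rpusd4, tmf1, uba3 and phf2 lower in mutant. The rule that chose the 8 required groups that do not overlap, so the lack of overlap follows from the choice.

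The libraries of 47 dpf are not among those of 61 dpf, so they show the same genotypes in other samples. Of the 28 genes called on the chromosome of adamts9 at 61 dpf, 25 (89.3%) had the same sign at 47 dpf, and in 20 the groups of 47 dpf lay apart in the same direction. Of the 284 called on other chromosomes, 219 (77.1%) had the same sign and 84 lay apart in the same direction. Over all tested genes the sign was shared by 63.4%, and 12.6% had groups that did not overlap at 47 dpf in either direction. At 47 dpf 19 genes (0.0888%) were called, and 14 genes were called at both ages in the same direction, of which 9 were on the chromosome of adamts9, 2 on other chromosomes and 3 not placed.

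With clone names passed over, the 6 genes with the smallest p on the chromosome of adamts9 had log2 fold changes at 47 dpf of -2.61 for rpusd4, 4.38 for ogfrl2, -2.38 for tmf1, 0.98 for cdh4, -1.82 for uba3 and -1.32 for phf2. The clone-named si:dkey-13m1.5, whose p was also among the smallest, had -6.01. On that chromosome, the median log2 fold change of the genes called higher was 1.72 at 61 dpf and 0.79 at 47 dpf, and that of the genes called lower was -1.48 at 61 dpf and -1.31 at 47 dpf. On other chromosomes the median of the genes called higher was 1.53 at 61 dpf and 0.26 at 47 dpf, and that of the genes called lower was -1.21 at 61 dpf and -0.23 at 47 dpf. The genes were chosen by the values of 61 dpf, which are therefore a description. Among single genes, the log2 fold change at 47 dpf was 0.01 for mmp16b, a matrix protease gene higher in mutant by 2.23 at 61 dpf. It was 0.10 for cmah, an enzyme of sialic acid modification lower in mutant by 2.13 at 61 dpf. cmah had 2.2, 2.6 and 2.6 CPM in mutant at 47 dpf and 3.8, 4.48 and 3.84 CPM at 61 dpf. In wild type it had 1.8, 2.9 and 2.1 CPM at 47 dpf and 16.5, 15.4 and 21.4 CPM at 61 dpf. krt18a.1, a keratin of simple epithelia, was the called gene of other chromosomes with a symbol that was also called at 47 dpf, with log2 fold changes of 1.4 at 61 dpf and 1.49 at 47 dpf, though its call at 61 dpf was lost when any mutant library was left out. The 2 comparisons share no libraries. The difference between the ages, tested in the same edgeR fit, called 0 genes after adjustment, 1812 (8.47%) at an unadjusted p under 0.05, and 102 by DESeq2. That unadjusted edgeR p was under 0.05 for 9 of the 28 genes called on the chromosome of adamts9 and 212 of the 284 on other chromosomes. The choice of these genes by the values of 61 dpf, which also enter this difference, favours a low p.

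**Figure D3:**
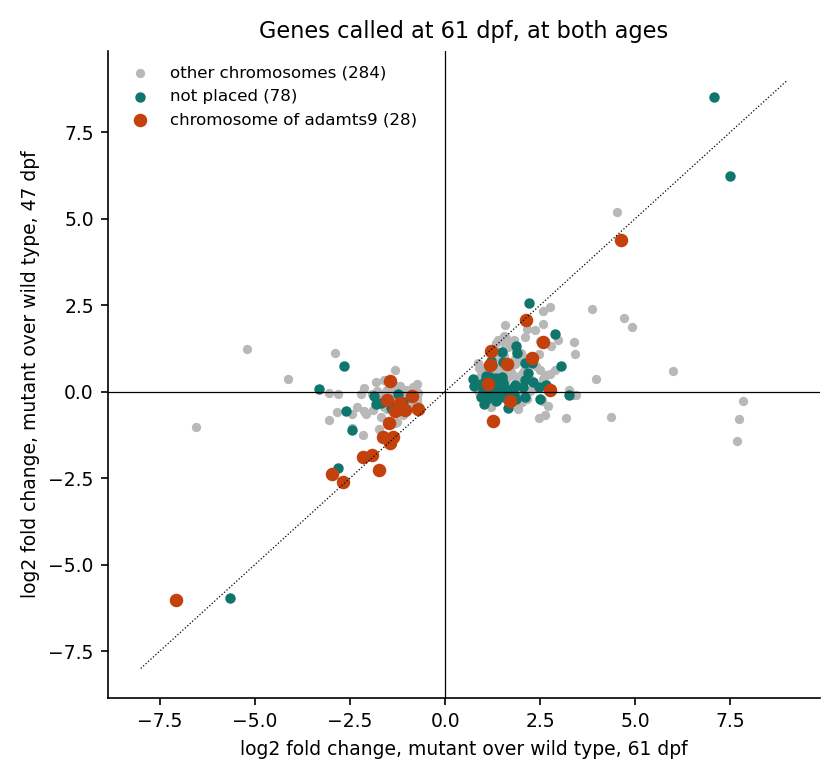
Log2 fold change of mutant over wild type at 61 dpf (x axis) and at 47 dpf (y axis) for the 390 genes called at 61 dpf, with the 28 genes of the chromosome of adamts9, the 284 of other chromosomes and the 78 not placed in different colours. The dotted line marks equal values, and 25 of the 28 genes of the chromosome of adamts9 lie in the 2 quadrants of equal sign.

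Genes that could not be placed were called in 78 of 3665 cases (2.13%), 65 of them higher in mutant, and their median log2 fold change was 0.29. Most of them, 68, carry clone or locus names, and their place relative to adamts9 was not tested. Those with the largest differences, chosen after their values were seen, were also called at 47 dpf. LO018315.3 had 977, 946 and 1150 CPM in mutant, against 8.39, 7.8 and 0.903 CPM in wild type (log2 fold change 7.48, SE 0.67, adjusted p = 0.00042), and its log2 fold change at 47 dpf was 6.24. zgc:173545 had 1.55, 3.89 and 5.57 CPM in mutant, against 223, 191 and 134 CPM in wild type (log2 fold change -5.65, SE 0.64, adjusted p = 0.00305), and its log2 fold change at 47 dpf was -5.97. Neither pair of groups overlapped at 61 dpf.

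On the other chromosomes the called genes included matrix proteases, which are described first because Adamts9 is itself a matrix protease. Of 24 tested metalloproteases of the MMP family and their Timp inhibitors, 4 rose and none fell (16.7%, against 1.82% of all genes called). Their median log2 fold change was 1.0, against 0.0055 over all genes. mmp16b, a membrane-type protease, had 14.2, 9.5 and 10.8 CPM in mutant, against 2.0, 3.26 and 2.11 CPM in wild type. Its mutant libraries were all above the wild-type ones (log2 fold change 2.23, SE 0.27, adjusted p = 0.00395), and the call held without each library in turn but not in the fit of the 6 libraries of 61 dpf (adjusted p = 0.057). mmp14a, another membrane-type protease, had 6.25, 8.11 and 6.79 CPM in mutant, against 2.49, 3.07 and 3.53 CPM in wild type, with no overlap (log2 fold change 1.22, SE 0.24, adjusted p = 0.0375). mmp9, a gelatinase, had 9.47, 10.9 and 9.41 CPM in mutant, against 4.14, 3.59 and 4.26 CPM in wild type, and its groups were apart as well (log2 fold change 1.31, SE 0.27, adjusted p = 0.0391). timp2b, an inhibitor of these enzymes, rose by 1.15. mmp16b was the 1 member still called when any mutant library, wild-type replicate 1 or wild-type replicate 3 was left out, and 5 were called when wild-type replicate 2 was left out. None of the 15 tested ADAMTS genes was called by edgeR (median 0.30, 4 at an unadjusted p under 0.05), and DESeq2 called 1 higher.

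In 3 lists of matrix genes, the members called by edgeR were higher in mutant. Of 45 matrix glycoproteins 5 rose (11.1%, median 0.68), of 34 fibrillar and other collagens 2 rose (5.88%, median 0.78), and of 28 basement membrane genes 2 rose (7.14%, median 0.52), against 1.82% called and 1.22% called higher over all genes. mxra5b, a matrix-remodelling-associated gene outside these lists that was chosen after its values were seen, fell by 1.17. smoc2, a calcium-binding matrix protein, had 12.4, 9.86 and 5.85 CPM in mutant, against 1.35, 2.55 and 0.86 CPM in wild type, with no overlap (log2 fold change 2.57, SE 0.45, adjusted p = 0.0306). elnb, an elastin, rose by 2.79, thbs3b, a thrombospondin, by 2.40, fbn2b, a fibrillin, by 1.51 and tnxba, a tenascin, by 1.04. col4a5, a collagen of the basement membrane, had 20.6, 23.8 and 18.8 CPM in mutant, against 8.23, 12.6 and 8.69 CPM in wild type, and its groups did not overlap (log2 fold change 1.1, SE 0.2, adjusted p = 0.0309). At 47 dpf col4a5 had 21.5, 24.1 and 19.7 CPM in mutant and 21.1, 23.4 and 20.6 CPM in wild type. lamb2l, a laminin chain, rose by 1.11, col11a1b by 0.95 and col6a3 by 0.90. The proteoglycan gene gpc1a, a glypican, rose by 2.90 and was the 1 called gene of 28 in that list (median 0.37). These counts rested on single libraries. No gene of the collagen or basement membrane list was called higher without mutant replicate 1, 2 or 3 or wild-type replicate 3. The calls of the glycoprotein list were then 0, 0, 1 and 0. Without wild-type replicate 1, 1 gene of the collagen list was called lower and 0 higher. DESeq2 called 12 genes of that list higher and 1 lower. The collagen genes col22a1, col28a1b and col7a1l, outside these lists and chosen after their values were seen, rose by 2.05, 1.81 and 1.35. Of the 6 fits that leave out a library, col22a1 and col7a1l were called in 3 each and col28a1b in 2. In the fit of the 6 libraries of 61 dpf none of the 3 lists had a call. Integrins, the receptors of the matrix, had 0 edgeR calls in 24 genes (median -0.04, 5 at an unadjusted p under 0.05), and DESeq2 called 1 lower.

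Somatic genes of the gonad moved in both directions. gsdf, the gonadal soma-derived factor of the transforming growth factor family, had 36.1, 44.8 and 53.6 CPM in mutant, against 17.1, 18.9 and 9.93 CPM in wild type. All mutant libraries were higher (log2 fold change 1.55, SE 0.34, adjusted p = 0.0438). The call of gsdf was lost without any 1 library other than wild-type replicate 2, and in the edgeR fit of the 6 libraries of 61 dpf (adjusted p = 0.102). fshr, the receptor of follicle-stimulating hormone on granulosa cells, had 4.86, 4.11 and 3.9 CPM in mutant, against 7.31, 11.5 and 10.4 CPM in wild type, and every mutant library was lower (log2 fold change -1.18, SE 0.24, adjusted p = 0.0379). aldh1a2, the enzyme that makes retinoic acid, had 18, 21.9 and 21.6 CPM in mutant, against 5.71, 6.19 and 9.12 CPM in wild type, with no overlap (log2 fold change 1.55, SE 0.27, adjusted p = 0.0281). pdgfra, a growth factor receptor of stromal cells, had 21.1, 27.9 and 27.2 CPM in mutant, against 9.45, 11.5 and 10.6 CPM in wild type, also without overlap (log2 fold change 1.27, SE 0.19, adjusted p = 0.0129). The transcription factor genes wt1b and wt1a rose by 1.99 and 1.64. Of 27 retinoic acid genes 2 rose (7.41%, median 0.35), aldh1a2 and crabp2b, a binding protein that rose by 0.96. In the lists of gonadal soma, 5 of 32 genes listed as testis somatic rose (15.6%, median 0.23): pdgfra, aldh1a2, wt1b, wt1a and gsdf. Of 37 granulosa and ovary somatic genes 2 rose and 1 fell (8.11%, median -0.03), against 1.82% of all genes called. The 2 that rose are wt1b and wt1a, which stand on both lists, so the lists are not independent. The testis somatic list had 0 calls when mutant replicate 2 or 3 was left out, 3 when mutant replicate 1 or wild-type replicate 1 was, and 2 when wild-type replicate 3 was. The call of fshr was lost when any mutant library or wild-type replicate 3 was left out, with log2 fold changes of -1.33 to -1.04. That of aldh1a2 was lost without any 1 mutant library, and that of pdgfra without mutant replicate 2 or 3. That of wt1b was lost without mutant replicate 2, mutant replicate 3 or wild-type replicate 3.

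Of 6 genes taken as markers of testis somatic cells, only gsdf was called, and 3 of the 6 had positive log2 fold changes. These genes need not be particular to testis, and whether their transcripts came from testis-like cells was not tested. sox9a had 2.41, 1.67 and 2 CPM in mutant, against 0.92, 1.09 and 1.12 CPM in wild type, without overlap. cyp11c1 had 0.653, 0.218 and 0.724 CPM in mutant, against 0.135, 0.142 and 0.172 CPM in wild type, also apart. insl3 overlapped between the groups, at 0.245, 0.837 and 0.501 CPM in mutant and 0.974, 0.52 and 0.602 CPM in wild type. dmrt1, a male pathway gene, had 2.33, 4.8 and 2.67 CPM in mutant, against 2.35, 12.8 and 2.15 CPM in wild type. amh, which restrains follicle recruitment, had 6.12, 7.39 and 6.46 CPM in mutant, against 5.82, 6.14 and 12.6 CPM in wild type. Both overlapped between the groups, and their log2 fold changes of -0.80 and -0.29 turned to 0.54 for dmrt1 when wild-type replicate 2 was left out and to 0.15 for amh when wild-type replicate 3 was. cyp19a1a, the aromatase gene, had 0.939, 2.88 and 0.78 CPM in mutant, against 1.95, 1.56 and 2.32 CPM in wild type, likewise with overlap (log2 fold change -0.33, SE 0.67, adjusted p = 0.798). The 6 testis somatic markers summed to 47.9 to 65.9 CPM in mutant and 26.5 to 39.6 CPM in wild type, mostly gsdf. The 6 granulosa and ovary somatic markers summed to 17.2 to 22.9 CPM in mutant and 24.2 to 30.0 CPM in wild type. Of these, fshr alone was called, and foxl2a alone had a positive log2 fold change (0.64, adjusted p = 0.257). foxl2a had 7.96, 7.6 and 4.51 CPM in mutant, against 5.17, 5.15 and 2.58 CPM in wild type, with overlap. Spermatid markers were at 2.28 to 5.39 CPM in mutant and 3.26 to 5.85 CPM in wild type. In bulk ovary RNA, fewer cells of a type and less RNA per cell cannot be told apart.

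**Figure D4:**
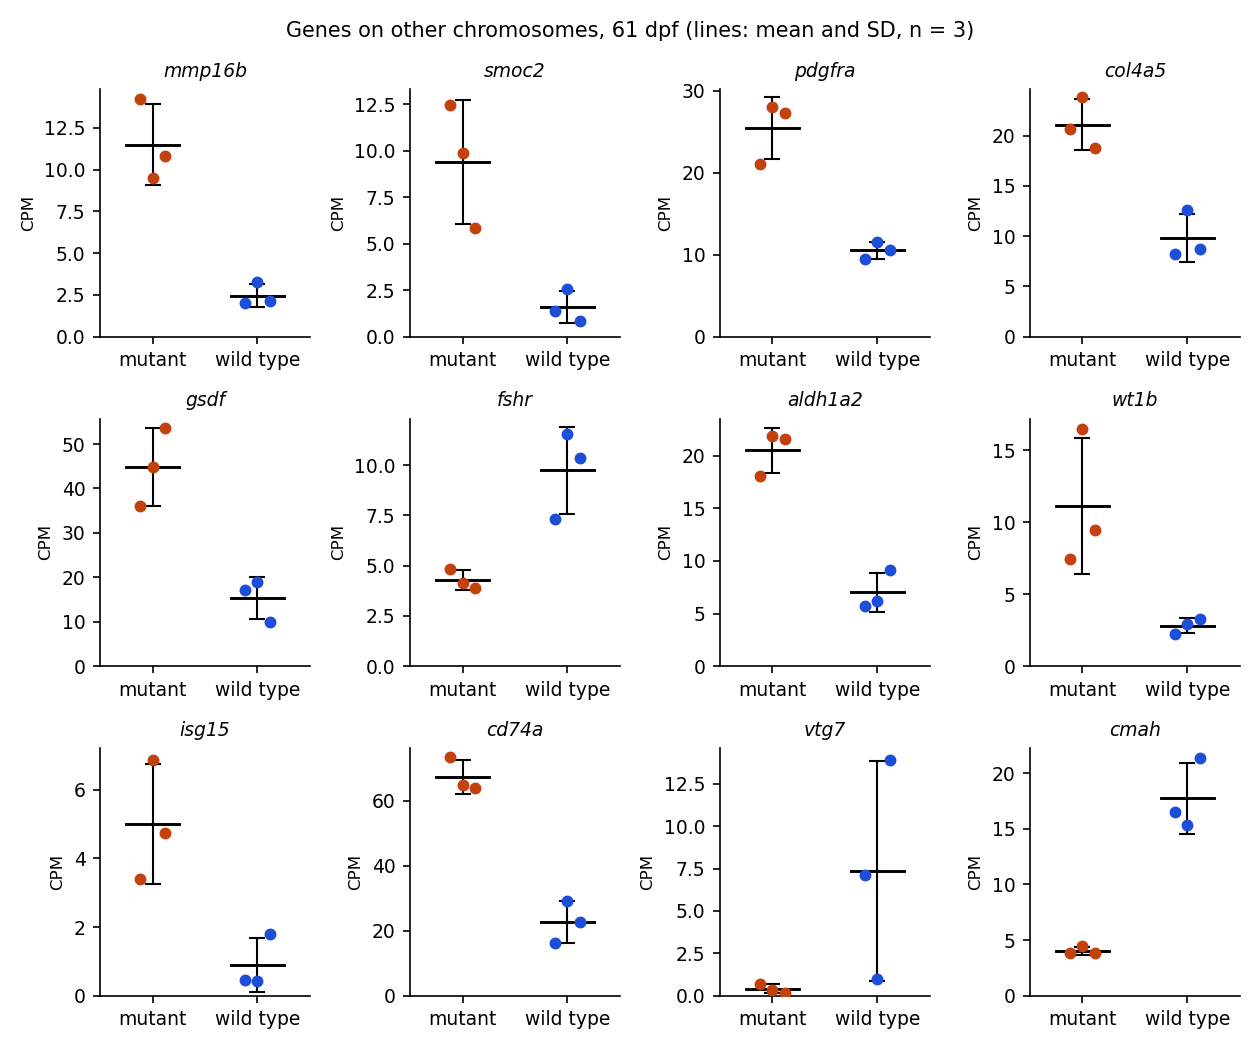
CPM of each library for 12 called genes that are not on the chromosome of adamts9, mutant left and wild type right, with the mean and SD of 3 libraries as lines. fshr, vtg7 and cmah are lower and the other 9 higher in mutant, and the groups do not overlap in any of the 12. For mmp16b, smoc2, isg15, vtg7 and cmah, a rule that chose them required this.

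Oocyte genes showed no call by edgeR at 61 dpf. With 1.82% of all genes called, 0 calls in lists of this size is near the share of all genes. Of 31 oocyte growth and maternal regulator genes 0 were called (median -0.003, 4 at an unadjusted p under 0.05), and 2 higher and 1 lower were when wild-type replicate 1 was left out. DESeq2 called 2 higher and 1 lower. The lists of meiosis, germ plasm and piRNA, and meiotic maturation also held 0 edgeR calls among 27, 24 and 31 genes, with 9, 3 and 5 at an unadjusted p under 0.05. DESeq2 called 3 higher and 2 lower for meiosis, 1 lower for germ plasm and piRNA, and 2 lower for meiotic maturation. It called 2420 of 21272 genes in all. figla, an oocyte transcription factor, had 43.9, 59.6 and 50.6 CPM in mutant, against 23.2, 21.8 and 37.3 CPM in wild type. bmp15, an oocyte growth factor, had 198, 183 and 162 CPM in mutant, against 236, 285 and 539 CPM in wild type. The groups of both genes lay apart, figla with the mutant libraries above and bmp15 with them below, at log2 fold changes of 0.91 and -0.96 that were not called. gdf9, the partner of bmp15, overlapped between the groups with a log2 fold change of -0.16. The 21 zona pellucida genes of the egg coat had 0 calls by edgeR or DESeq2 (1 at an unadjusted p under 0.05), and their median log2 fold change was 0.62. Their summed level was 21500, 20700 and 25300 CPM in mutant and 27500, 5710 and 7270 CPM in wild type, so wild-type replicate 1 alone lay with the mutant libraries. Without it, 15 of the 21 genes were called higher in mutant, with a median of 1.8.

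Vitellogenins, the yolk precursors that the liver makes for growing oocytes, had negative log2 fold changes in all 6 tested genes (median -4.0). Of these, 2 were called lower in mutant (33.3%, against 1.82% of all genes called and 0.598% called lower). vtg7 had 0.694, 0.364 and 0.167 CPM in mutant, against 7.15, 0.993 and 13.9 CPM in wild type, and no mutant library reached the lowest wild-type one (log2 fold change -4.12, SE 0.88, adjusted p = 0.0427). vtg4 had 0.449, 0.182 and 0 CPM in mutant, against 7.01, 0.851 and 17.4 CPM in wild type, likewise without overlap (log2 fold change -5.21, SE 1.19, adjusted p = 0.0497). Both calls were lost without any 1 library other than wild-type replicate 2. Without that one 6 of 7 were called lower, in a fit that called 897 of 21907 genes lower. The vitellogenin sum was 12, 2.69 and 1.84 CPM in mutant and 103, 14.1 and 116 CPM in wild type. The 4 liver markers fabp10a, tfa, fga and apoa2 summed to 28.7, 6.04 and 5.23 CPM in mutant and 6.47, 3.36 and 6.66 CPM in wild type. Their part in the vitellogenin values was not tested. At 47 dpf vtg7 and vtg4 had log2 fold changes of 0.35 and 1.24. Reads of near-identical vitellogenin copies may be divided between them, so a single copy is uncertain.

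Interferon-induced and antigen-presentation genes were higher in mutant in all 7 of the called genes of a list of 56 (12.5%, median 0.35). Over all genes 1.82% were called and 1.22% called higher. mxb, an antiviral GTPase, had 1.35, 6.77 and 3.06 CPM in mutant, against 0.325, 0.236 and 0.172 CPM in wild type, with every mutant library above every wild-type one (log2 fold change 3.87, SE 0.78, adjusted p = 0.0375). rsad2, an antiviral radical enzyme, had 0.694, 1.16 and 1.06 CPM in mutant, against 0.0812, 0.0473 and 0.129 CPM in wild type, also without overlap (log2 fold change 3.42, SE 0.62, adjusted p = 0.0306). All 3 wild-type values of rsad2 are at or below 3 counts per library, so the size of its difference is uncertain. isg15, a ubiquitin-like modifier, had 3.39, 6.88 and 4.73 CPM in mutant, against 0.46, 0.425 and 1.81 CPM in wild type, with no overlap (log2 fold change 2.49, SE 0.5, adjusted p = 0.0375). stat1b, which carries the interferon signal, rose by 2.29, and mhc1uba, an MHC class I gene, by 1.81. cd74a, a chain that accompanies MHC class II, rose by 1.57. No gene of the list was called higher when a mutant library was left out, 3 were when wild-type replicate 1 was, and 1 was when wild-type replicate 3 was. Without mutant replicate 3, 1 was called lower. Without wild-type replicate 2, 8 were called higher and 1 lower, and DESeq2 called 15 higher and 1 lower. At 47 dpf 0 of the list were called, 44 of 56 had a positive log2 fold change, and the median was 0.68.

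Summed levels of immune cell markers overlapped between the groups. The 6 macrophage and neutrophil markers were at 24.0 to 29.4 CPM in mutant and 15.1 to 40.2 CPM in wild type, and 5 lymphocyte markers at 7.74 to 17.8 CPM in mutant and 5.31 to 13.9 CPM in wild type. The highest wild-type sum, 40.2 CPM in replicate 3, held 24.1 CPM of the single gene spi1b. spi1b had 9.37 and 3.97 CPM in the other wild-type libraries and 4.53, 5.82 and 4.4 CPM in mutant. coro1a, an actin regulator of white blood cells, rose by 1.39 and was the 1 called gene of 37 in the macrophage and neutrophil list (2.7%, median 0.75). In that list 31 of 37 log2 fold changes were positive at 61 dpf, and 34 at 47 dpf. Its groups of 61 dpf lay apart in 16 genes with mutant higher and 1 with mutant lower, against 15.6% and 12.3% of all genes. ikzf1, a lymphoid transcription factor, rose by 1.84 as the 1 of 24 lymphocyte genes (4.17%, median 0.55), against 1.82% of all genes called. Both calls were lost without any 1 library other than wild-type replicate 2. Their part in the interferon result was not tested.

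Genes of hormone and lipid signalling were called singly. ptgis, the prostacyclin synthase, had 2.25, 6.04 and 5.57 CPM in mutant, against 0.785, 0.662 and 0.774 CPM in wild type. Every mutant library was higher (log2 fold change 2.63, SE 0.39, adjusted p = 0.0153). ptgs1, a cyclooxygenase, had 3.31, 3.53 and 4.12 CPM in mutant, against 7.96, 8.37 and 11.1 CPM in wild type. It was lower in every mutant library (log2 fold change -1.33, SE 0.29, adjusted p = 0.0452). Of 23 prostaglandin genes 1 thus rose and 1 fell (8.7%, against 1.82% of all genes called). nr3c1, the glucocorticoid receptor, fell by 1.11 as the 1 called gene of 19 steroid receptors (5.26%, median 0.22). None of 31 steroidogenesis genes was called by edgeR or DESeq2 (median 0.02, 6 at an unadjusted p under 0.05). Of signalling lists, smad1 rose by 1.22 as the 1 called of 48 transforming growth factor genes (2.08%). fzd2, a Wnt receptor, rose by 1.36 as the 1 called of 53 (1.89%), both shares near that of all genes. cdon, a hedgehog co-receptor, rose by 1.45 as the 1 called of 17 (5.88%), in a list with 5 positive log2 fold changes and a median of -0.22. The cell cycle genes cenpf and prc1b fell by 1.75 and 0.77 as the 2 called of 47 (4.26%, median -0.08), where DESeq2 called 3 higher and 5 lower. cdkn1a, the p21 inhibitor of the cell cycle, rose by 1.15 and bcl2b by 1.39 in the apoptosis and p53 list of 48 (4.17%). That list went mostly the other way, with 18 of 48 log2 fold changes positive and a median of -0.21. In it DESeq2 called 2 higher and 7 lower. Each gene named in this group lost its edgeR call when mutant replicate 2, mutant replicate 3 or wild-type replicate 3 was left out.

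Among the genes with the smallest p on other chromosomes, cmah had 3.8, 4.48 and 3.84 CPM in mutant, against 16.5, 15.4 and 21.4 CPM in wild type. Its groups did not overlap (log2 fold change -2.13, SE 0.24, adjusted p = 0.0029). ackr3b, a scavenger receptor of the chemokine Cxcl12, had 4.98, 6.26 and 5.29 CPM in mutant, against 1.3, 1.61 and 1.38 CPM in wild type, with no overlap (log2 fold change 1.95, SE 0.26, adjusted p = 0.0085). olfcq14, of the olfactory receptor C family, had 43.4, 55.2 and 47.8 CPM in mutant, against 18.7, 17.7 and 15.8 CPM in wild type, again apart (log2 fold change 1.49, SE 0.17, adjusted p = 0.00378). smyhc3, a slow myosin heavy chain, had 0.98, 1.02 and 1.45 CPM in mutant, against 0, 0 and 0 CPM in wild type. It was at 0 in all 3 wild-type libraries of 61 dpf, and taking 3 counts per library as the floor it was at least 9.79-fold higher in mutant. The call of these 4 genes held without each library in turn. In the fit of the 6 libraries of 61 dpf that of cmah held (adjusted p = 0.0336), and those of ackr3b (adjusted p = 0.0613), olfcq14 (adjusted p = 0.057) and smyhc3 (adjusted p = 0.0503) were lost. smyhc3 was at 0.96, 0.84 and 0.74 CPM in mutant and 0.60, 0.88 and 1.61 CPM in wild type at 47 dpf.

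Other large differences on other chromosomes, among genes with a symbol, a mean log2 CPM of at least 1 and groups that did not overlap, came from genes outside these lists. f2r, a thrombin receptor, had 3.18, 4.91 and 4.73 CPM in mutant, against 0.812, 0.567 and 0.731 CPM in wild type, with the mutant libraries all above (log2 fold change 2.58, SE 0.44, adjusted p = 0.0267). lgals17, a galectin that binds sugars, had 1.71, 5.53 and 4.62 CPM in mutant, against 0.596, 0.284 and 0.602 CPM in wild type, without overlap (log2 fold change 2.97, SE 0.53, adjusted p = 0.0306). cmn, which encodes the matrix protein calymmin, had 4.33, 3.17 and 4.12 CPM in mutant, against 0.596, 0.946 and 0.473 CPM in wild type, and its groups also lay apart (log2 fold change 2.53, SE 0.36, adjusted p = 0.0114). Among the falls, ndrg1b had 0.735, 0.328 and 0.446 CPM in mutant, against 2.38, 2.93 and 7.44 CPM in wild type, with all mutant libraries below (log2 fold change -3.06, SE 0.62, adjusted p = 0.0375). cx34.5, a connexin of gap junctions, had 3.31, 5.86 and 3.84 CPM in mutant, against 15.9, 9.69 and 22.5 CPM in wild type, without overlap (log2 fold change -1.89, SE 0.38, adjusted p = 0.0375). basp1, a membrane-bound signalling protein, had 4.2, 3.89 and 4.84 CPM in mutant, against 13.3, 16.2 and 16 CPM in wild type, and its groups did not overlap (log2 fold change -1.81, SE 0.26, adjusted p = 0.00976). The calls of f2r, ndrg1b and cx34.5 were lost when any mutant library or wild-type replicate 3 was left out, and that of lgals17 without mutant replicate 2, mutant replicate 3 or wild-type replicate 3. The call of cmn was lost without mutant replicate 3, and that of basp1 without mutant replicate 1 or 2. olah fell by 3.05 on the log2 scale, aifm5 by 2.45, sept5a by 2.15 and ppp2r5a by 2.09. The call of olah was lost without any 1 library other than wild-type replicate 1 or 2, and the calls of aifm5, sept5a and ppp2r5a without any 1 other than wild-type replicate 2.

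**Figure D5:**
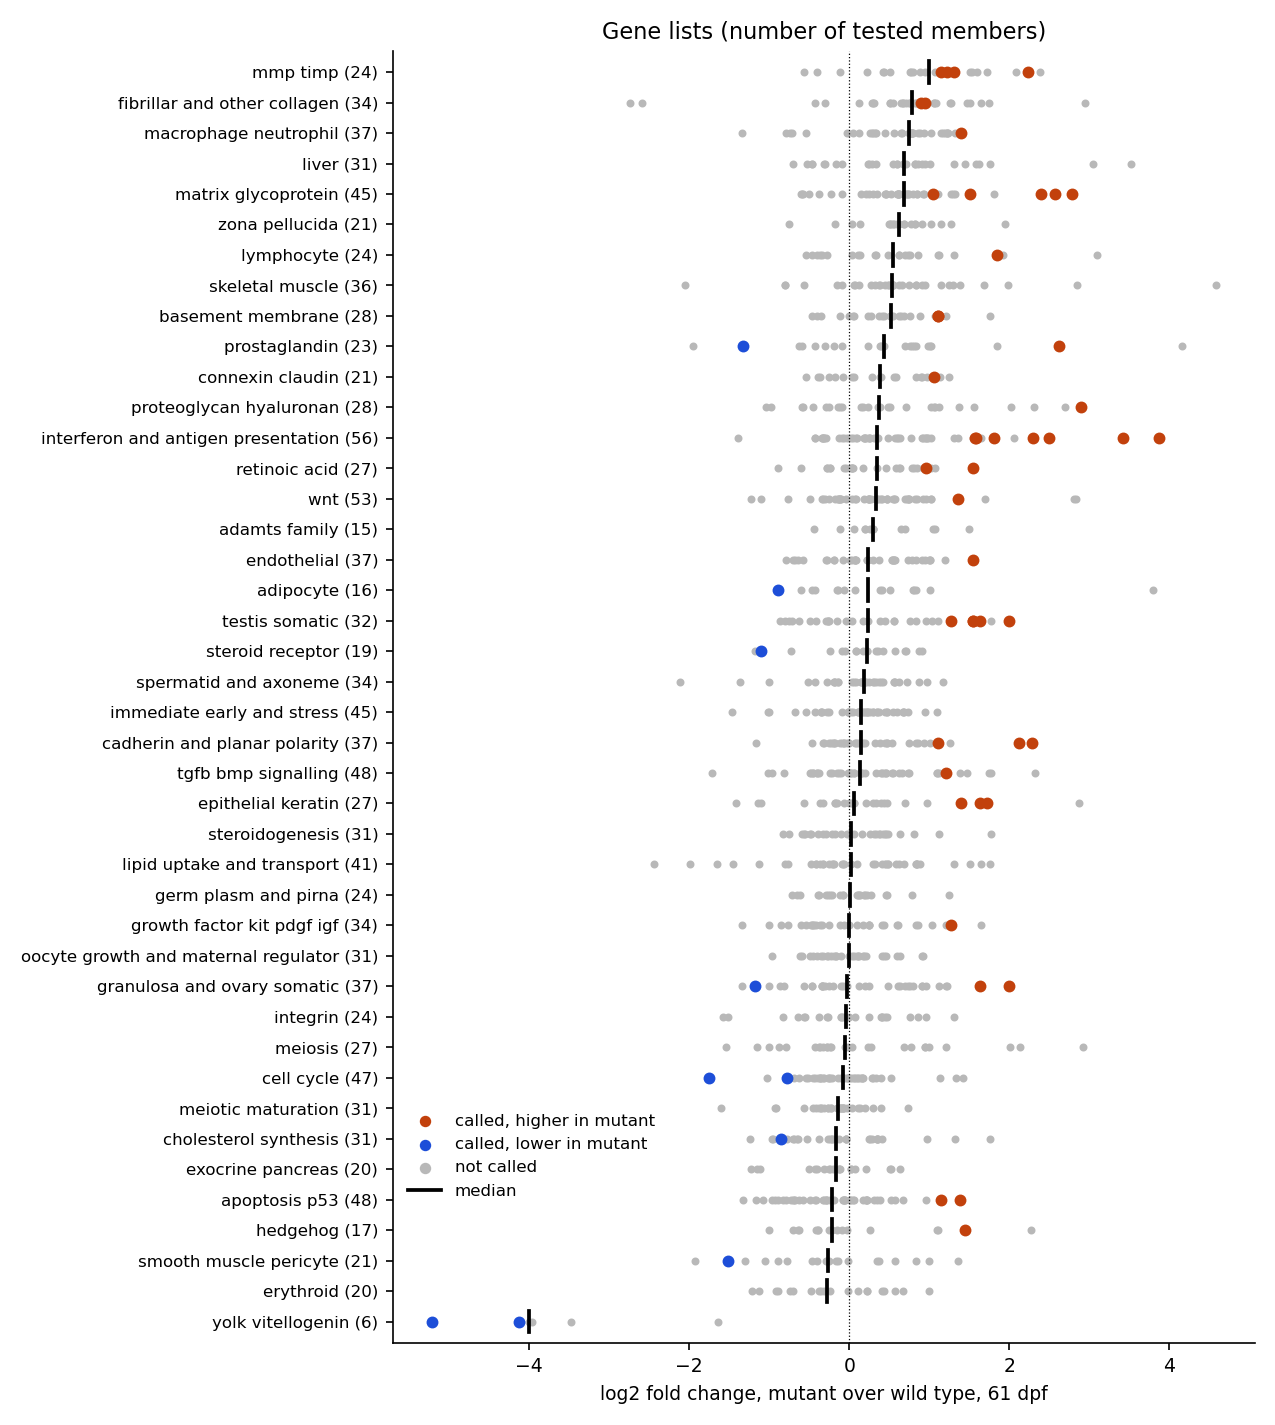
Log2 fold change of mutant over wild type at 61 dpf (x axis) of the tested members of 42 gene lists (y axis, with the number tested), called members in colour, with the median of each list as a bar. Lists are sorted by median, from 1.0 for matrix metalloproteases and Timp inhibitors to -4.0 for vitellogenins.

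Markers of other tissues that a dissected ovary could hold were uneven between libraries. Exocrine pancreas markers summed to 97.5, 3.53 and 287 CPM in mutant and 116, 276 and 41.0 CPM in wild type, and none of the 20 tested pancreas genes was called by edgeR or DESeq2 (0 at an unadjusted p under 0.05). Of 36 skeletal muscle genes edgeR called 0 (median 0.54, 6 at an unadjusted p under 0.05) and DESeq2 2 higher and 1 lower. Outside that list, the slow myosin genes smyhc3 and smyhc2 and the muscle gene klhl41a were called higher in mutant, the last 2 being chosen after their values were seen. smyhc2 had 0.898, 1.64 and 0.613 CPM in mutant, against 0, 0 and 0 CPM in wild type. klhl41a rose by 2.14. Of 31 liver genes 0 were called by edgeR or DESeq2 (3 at an unadjusted p under 0.05), and their median of 0.68 turned to -0.17 without mutant replicate 1. Endothelial markers were at 51.0 to 64.7 CPM in mutant and 45.6 to 62.4 CPM in wild type, smooth muscle and pericyte markers at 71.5 to 138 CPM in mutant and 104 to 149 CPM in wild type, and epithelial markers at 1090 to 1240 CPM in mutant and 1180 to 1250 CPM in wild type. No defining marker of any tissue or cell type was at 0 in all 6 libraries.

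Among lists of cell contacts and of the remaining cell types, calls were 0 to 3 a list. Of 37 cadherin and planar polarity genes 3 rose (8.11%, against 1.82% of all genes called), of which cdh4 and prickle2b lie near adamts9 and cdh16, a cadherin of epithelia, rose by 1.11. Of 27 epithelial and keratin genes 3 rose (11.1%): krt18a.1, wt1a and krt98, the last on the chromosome of adamts9 at 1.72. gja5b, a connexin of gap junctions, rose by 1.06 as the 1 called gene of 21 (4.76%), while the connexin gene cx34.5, which is not on that list, fell by 1.89. mrc1a, a scavenging receptor of lymphatic and venous endothelium, rose by 1.55 as the 1 called of 37 endothelial genes (2.7%). lmod1a, an actin nucleator of smooth muscle, fell by 1.52 as the 1 called of 21 genes (4.76%). agpat2, an enzyme of triglyceride synthesis, fell by 0.89 as the 1 called of 16 adipocyte genes (6.25%, median 0.23). The calls of cdh16, krt98, gja5b, mrc1a, lmod1a and agpat2 were lost when any mutant library or wild-type replicate 3 was left out. The lists of spermatid and axoneme, erythroid, lipid uptake and transport, and immediate early and stress genes had 0 edgeR calls among 34, 20, 41 and 45 genes, with 2, 4, 7 and 4 at an unadjusted p under 0.05. DESeq2 called 1 lower in the spermatid list, 0 in the erythroid list, 1 higher and 1 lower in the lipid list, and 1 higher in the immediate early list.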

How the data were processed

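Polyadenylated ovary RNA was measured in 12 libraries, 3 for each genotype at 47 and 61 dpf. Values are estimated counts by gene symbol in 1 table that the authors deposited, made with kallisto and the GRCz11 assembly per the submitters' processing notes. The kallisto version, the annotation and the strandedness were not given in the sources used here. Without strand, a gene and its antisense partner cannot be told apart. The unnamed row (at most 0.000113% of a library) and 17 date-named rows were left out, and counts were rounded.

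After filterByExpr had taken out lowly counted genes, the 12 libraries were scaled by TMM and fitted together by group with edgeR's quasi-likelihood test (edgeR 4.0.16, R 4.3.3), which was tested on simulated data. Benjamini-Hochberg adjustment covered all genes tested. A count of 0 allows 3 counts, or 0.0812 to 0.167 CPM in the libraries of 61 dpf; this covers counting error only. Alternatives were other scalings, no filter, DESeq2 1.42.0, a replicate term, the 6 libraries of 61 dpf alone, and each library left out.

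Gene order and chromosomes came from a RefSeq table of another assembly, GRCz12tu, which placed 17083 tested genes by symbol and 645 by synonym; no coordinates are given. The comparison, the 42 lists (1228 tested members) and the rule for naming genes were chosen with earlier results of these data known. The rule took 26 key genes, the 10 largest rises and falls and the 6 smallest p on and off the chromosome of adamts9, up to 5 called members of each list (2 members where none was called), and 4 genes by their p for the difference between ages, smallest first. It named 131 genes. Clone names were passed over among the rises, falls and smallest p, but not among the genes chosen for the difference between ages.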

Additional observations from a re-analysis of the deposited data

Results flagged for a closer look

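In 3 named genes the groups lay apart in opposite directions at the 2 ages. The difference of log2 fold changes, 61 minus 47 dpf, was 2.11 for abhd6a, a lipid hydrolase gene on the chromosome of adamts9, 3.32 for ptgis, and -3.4 for si:ch73-215d9.1, which could not be placed. ptgis had a log2 fold change of 2.63 at 61 dpf and -0.69 at 47 dpf, and abhd6a 1.27 at 61 dpf and -0.85 at 47 dpf. The edgeR test of the difference between ages called none of the 3 after Benjamini-Hochberg adjustment.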

How the results depend on the processing

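Counts are given for all genes, the chromosome of adamts9 and other chromosomes, which were 390, 28 and 284. They became 1008, 53 and 708 with upper-quartile scaling, 2420, 104 and 1882 with DESeq2, and 20, 7 and 6 with the 6 libraries of 61 dpf alone. With median-of-ratios scaling, no filter, date-named rows kept, the chromosome of adamts9 left out or placement by symbol alone they stayed within 1.5 times. Leaving out 1 library gave 27 to 1637, 10 to 67, and 12 to 1291. The difference between ages had 0 calls, 102 by DESeq2, and 0 to 3 with 1 library left out; it was not computed with 6 libraries. Same-numbered mutant and wild-type libraries of 61 dpf correlated at -0.0157 to 0.0227 in their deviations from the group means. No pairing by number was seen, but 3 libraries a group cannot exclude one. A replicate block gave 86, 13 and 53 calls.

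Genes that were not called changed sign. With 1 library left out, the log2 fold change ranged from -0.109 to 0.178 for adamts9 (-0.029 without mutant replicate 2), from -0.466 to 0.153 for amh, from -1.2 to 0.536 for dmrt1, from -0.0903 to 0.364 for piwil1 and from -0.102 to 0.27 for pgr. The cause of these changes was not tested. gdf9 was at 0.0365 with upper-quartile scaling, which moves all genes up alike. Of the 390 genes, 2 were called in none of the 6 fits that leave out a library of 61 dpf.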
